A study of Mus musculus with 2 samples.

Results

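Purinergic receptors and ectonucleotidases were followed across the cell classes of the mouse ventral parafacial region, the part of the medulla that holds the retrotrapezoid nucleus (RTN). The members are 10 genes, chosen by symbol, of the 28692 genes counted in both libraries. They are the P2Y receptors *P2ry1*, *P2ry6*, *P2ry12* and *P2ry13*, the P2X channels *P2rx4* and *P2rx7*, the ectonucleotidases *Entpd1*, *Entpd2* and *Nt5e*, and the adenosine receptor *Adora1*. All 10 had at least 140 unique molecular identifiers (UMIs) in the gated cells, and all 10 passed the filter on low counts.

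Cells came from 10-day-old C57BL6/J mice of the WT condition (batch 1) and from C57BL6/J mice of the same age injected with 4OH-Tam, 0.2 mg daily on 3 days (batch 2). Both groups were wild type, and 4OH-tamoxifen is the active metabolite of tamoxifen, used to switch on inducible Cre in other lines. Tissue of 8 mice, 4 of each sex, went into 1 Chromium version 2 library per condition. The condition, the batch and the pool of mice therefore cannot be told apart, and no test between the libraries was possible.

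The WT library held 18496942 UMIs in 3767 barcodes and the 4OH-Tam library 34704167 UMIs in 10241 barcodes, of which 3306 and 8566 cells passed the filters (median 3620 and 2413 UMIs per cell). A total of 40 barcodes occurred in both libraries. Marker panels that contain none of the members placed 2733 and 6262 cells in 12 classes, 10 of them anchored on *Nmb*, *Slc32a1*, *Slc17a6*, *Chat*, *Aqp4*, *Pdgfra*, *Gpr17*, *Mog*, *C1qa* and *Cldn5* and the other 2 on the pericyte gene *Rgs5* and the fibroblast gene *Dcn*. Each class is called by its markers with "-like", and OPC stands for oligodendrocyte precursor cell. The smallest are the fibroblast-like (11 and 27 cells, WT first), glutamatergic neuron-like (20 and 78), cholinergic neuron-like (21 and 97) and *Nmb* neuron-like classes (28 and 59), and the largest the astrocyte-like class (771 and 1685). Of the anchors, *Nmb*, which marks chemosensitive RTN neurons, reached 5507 and 8019 CPM in its class and 27.5 CPM or less elsewhere. Among neuron-like classes the gates set this contrast, because they use *Nmb* to split the neurons. Other anchors were less confined. *Gpr17* was at 488 and 442 CPM in OPC-like cells, against 1808 and 1840 in committed OPC-like cells. *Rgs5* was at 828 and 608 CPM in endothelial-like cells, against 7411 and 6328 in pericyte-like cells. CPM is a gene's share of the UMIs summed over the cells of a class and library, scaled to 1e+06. The glutamatergic neuron-like class also had *Th* and *Dbh*, enzymes of catecholamine synthesis, among its 10 leading genes, and 1 leading gene of the committed OPC-like class, *Tnr*, is a precursor marker.

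ATP released by cells acts on P2X channels, which open on binding it, and on P2Y receptors, which couple to G proteins and also take ADP or uridine nucleotides. Ectonucleotidases on the cell surface cut ATP and ADP down to AMP, and 5′-nucleotidase turns AMP into adenosine, which acts on its own receptors. In the parafacial region ATP from astrocytes is known to excite the neurons that drive breathing in response to CO2, and adenosine is known to dampen them. In microglia, the resident macrophages of the brain, ADP at P2Y12 directs process movement towards damage and P2X4 and P2X7 take part in inflammatory responses.

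*P2ry12* and *P2ry13* shared a pattern across the classes and are neighbours on chromosome 3 (GRCm38), on the minus strand at chr3:59216272-59262871 and chr3:59207892-59210882. Both lie inside *Med12l*, which is on the plus strand and reached 21.2 and 17.7 CPM in myeloid-like cells, far under *P2ry12*. The 250 bases before each start are shown because these genes stand out in what follows (RefSeq, GRCm38.p6, minus strand, 5′ to 3′), at chr3:59262986-59263235 for *P2ry12* and chr3:59210883-59211132 for *P2ry13*. Capitals mark AGGAA or its reverse complement, the core that ETS-family factors such as the myeloid factor PU.1 recognise.
P2ry12: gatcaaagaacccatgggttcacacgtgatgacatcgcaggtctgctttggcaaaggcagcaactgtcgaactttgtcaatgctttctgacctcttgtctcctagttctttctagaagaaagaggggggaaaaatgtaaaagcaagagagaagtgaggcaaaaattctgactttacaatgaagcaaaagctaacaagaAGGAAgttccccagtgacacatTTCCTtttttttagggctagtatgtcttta
P2ry13: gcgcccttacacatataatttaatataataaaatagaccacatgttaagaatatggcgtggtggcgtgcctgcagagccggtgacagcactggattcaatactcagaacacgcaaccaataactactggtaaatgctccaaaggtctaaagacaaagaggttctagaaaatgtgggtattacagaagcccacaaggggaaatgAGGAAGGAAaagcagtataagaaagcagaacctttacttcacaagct
The *P2ry12* window has 1 match on each strand, starting 52 and 30 bases before the RefSeq start at the end of the window, which lies upstream of the GENCODE start given above. The *P2ry13* window has 2 matches that overlap by a base, at 47 and 43 bases. At least 1 match on either strand occurs in 60.3% of the 32851 windows of this length in the table and in 7 of the 12 windows of the 9 members listed there, so the letters do not set these 2 genes apart. The longer form GAGGAAGT, found in 2.44% of all windows, is in 0 of the 12.

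Each class was compared with the mean of the others on UMIs summed per class and library (edgeR quasi-likelihood test, Benjamini-Hochberg adjusted p under 0.05). The test measures the spread left between the 2 libraries within classes after a library term, pooled over the classes. The libraries are pools of mice and not single animals, so the p-values do not measure the spread between mice. Of 120 pairs of a member and a class, 28 were called higher and 9 lower. The background over all 13454 genes tested was 22.7% of pairs higher and 11.7% lower, so the members as a list were called higher about as often as genes in general (23.3%). Their median log2 difference was -0.16. What differed was where each member stood, as the heat map of the members shows.

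**Figure D1:**
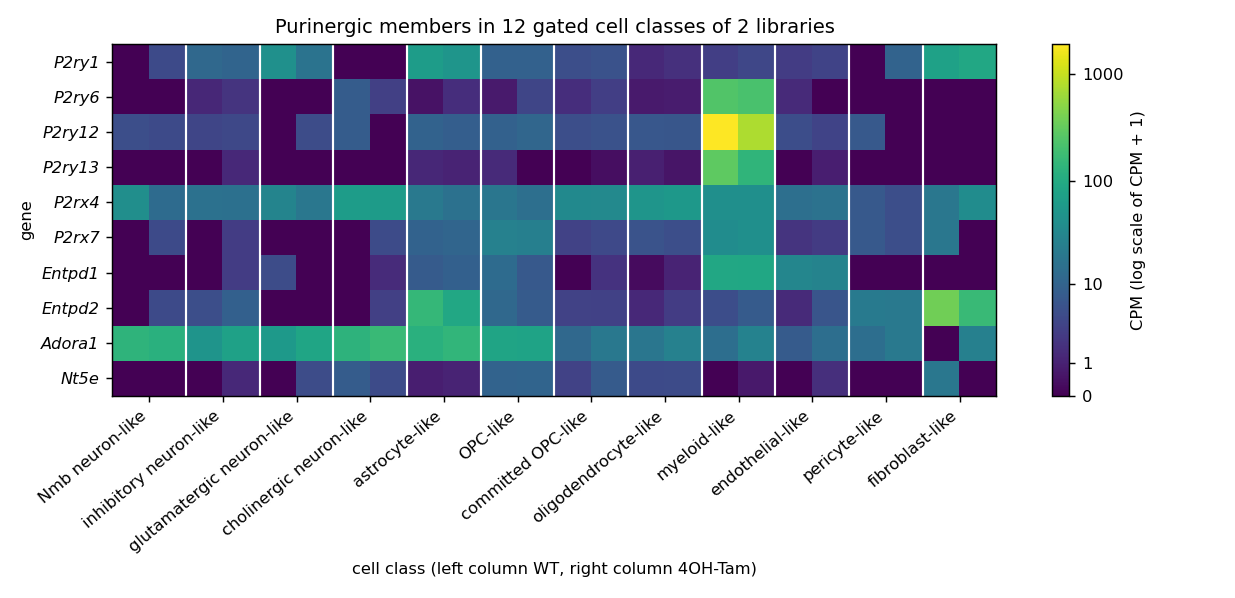
CPM of the 10 members (rows) in 12 gated cell classes (columns, WT left and 4OH-Tam right within each pair), on a colour scale of log10(CPM + 1). *P2ry6*, *P2ry12* and *P2ry13* are bright in the myeloid-like class, at 140 to 1925 CPM, and dark elsewhere, while *Adora1* spreads over neuron-like classes, astrocyte-like and OPC-like cells.

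*P2ry12*, *P2ry13* and *P2ry6* were each called higher in the myeloid-like class (374 and 587 cells) and in no other class. In that class 6 of the 10 members were called higher and 0 lower, against 28.7% of all genes higher and 14.6% lower. *P2ry12*, the Gi-coupled ADP receptor, was at 1925 CPM (95% Poisson interval 1858 to 1994) in WT and 769 CPM (726 to 815) in 4OH-Tam myeloid-like cells (edgeR adjusted p = 1.02e-47). Its level over all other gated cells was 6.93 and 6.49 CPM, so the ratio was 278 (225 to 348) and 119 (99.3 to 142). *P2ry13*, another ADP receptor, was at 293 (267 to 321) and 140 CPM (122 to 160) (edgeR adjusted p = 2.43e-49), against 0.716 and 0.607 CPM in all other cells. *P2ry6*, the UDP receptor that promotes phagocytosis, was at 244 (220 to 269) and 216 CPM (194 to 241) (edgeR adjusted p = 2.64e-50), against 0.955 and 1.59 CPM. For each of the 3 genes the lower myeloid library lay above both libraries of every other class. With 2 libraries per class this sets them apart little. It also held for *P2ry1* and *Entpd2* in fibroblast-like and *P2rx4* in cholinergic neuron-like cells, from 11, 33 and 48 UMIs. The share of all genes for which it holds was not computed. Intervals of CPM, shares and ratios here and below cover counting error only.

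Per cell, *P2ry12* was found in 94.9% (92.2 to 96.9, Clopper-Pearson) of WT and 81.3% (77.9 to 84.3) of 4OH-Tam myeloid-like cells, with median depths of 4096 and 2361 UMIs. After thinning every cell to 2000 UMIs the shares were 90.9% and 72.1%, over 363 and 420 cells. Oligodendrocyte-like cells had it in 6.19% and 4.49% of cells at median depths of 11510 and 7179 UMIs. Whether these shares are a background rate was not tested. *P2ry13* was found in 64.4% and 27.6% of myeloid-like cells (46.3% and 22.4% thinned) and *P2ry6* in 59.9% and 41.9% (42.1% and 32.1% thinned). In oligodendrocyte-like cells these 2 were found in 0.394% to 1.03% of cells. At least 1 of *P2ry6*, *P2ry12*, *P2ry13* and *Entpd1* was seen in 369 of 374 WT and 545 of 587 4OH-Tam myeloid-like cells, and all 4 together in 50 and 14.

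The few UMIs of these receptors outside the myeloid-like class were set beside other microglial RNA there. The list for this was *Fcrls*, *Tmem119*, *Siglech*, *Laptm5*, *Selplg* and *Ly86*, genes known from microglia and not used in the gates. It summed to 7356 and 5092 CPM in myeloid-like cells and to 20.8 to 234 CPM in the other classes. At the myeloid ratio, the 451 and 817 UMIs of the list in the other classes would go with 118 and 123 UMIs of *P2ry12*, and 87 (69.7 to 107) and 139 (117 to 164) were counted. For *P2ry6* the same sum gives 14.9 and 34.7 UMIs, and 12 and 34 were counted. For *P2ry13* it gives 18.0 and 22.5, and 9 (4.12 to 17.1) and 13 (6.92 to 22.2) were counted. The sum for *P2ry12* in WT and both sums for *P2ry13* lay above the intervals of the counts, the *P2ry13* sum in 4OH-Tam only just, and the sums have a counting error of their own that these intervals leave out. In 4OH-Tam oligodendrocyte-like cells *P2ry12* was above it, with 30.4 UMIs per 100 of the list against 15.1 in myeloid-like cells. The source of the UMIs outside the myeloid-like class was not tested.

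**Figure D2:**
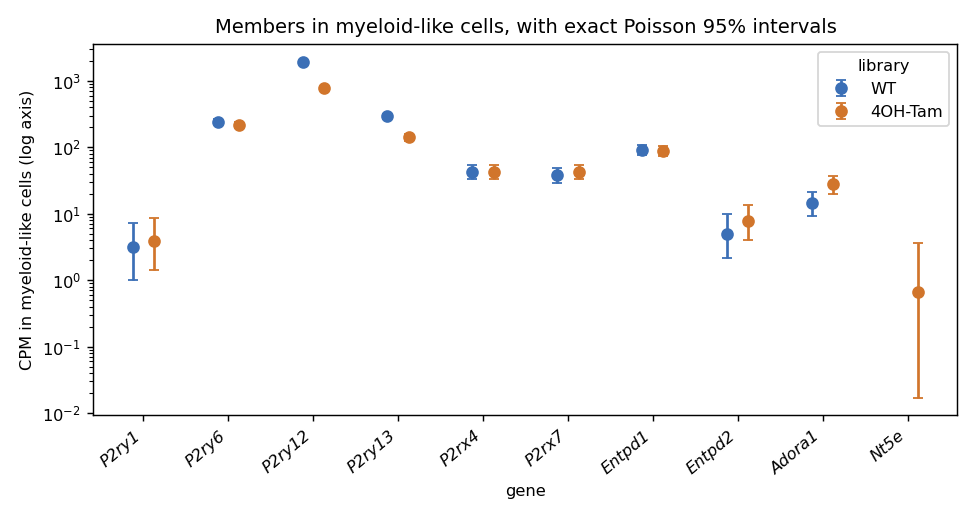
CPM of the members (log axis) in myeloid-like cells of the WT and 4OH-Tam libraries, with exact Poisson 95% intervals; members with 0 UMIs are not drawn. *P2ry12* and *P2ry13* lie higher in WT with intervals that do not overlap, while the intervals of *P2ry6*, *P2rx4*, *P2rx7* and *Entpd1* overlap.

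Within the myeloid-like class the P2Y receptors did not move together. Cells with at least 2 of the macrophage markers *Mrc1*, *Pf4*, *Cd163*, *Lyve1*, *F13a1*, *Ms4a7* and *Cbr2* (22 WT and 23 4OH-Tam cells) were set against cells with none (342 and 550). *P2ry12* was at 90.0 CPM with and 2048 CPM without the markers in WT, and at 35.5 and 798 CPM in 4OH-Tam, ratios without to with of 22.8 and 22.5 (upper bounds 49.8 and 186, lower bound 6.21 in 4OH-Tam). *P2ry13* was at 10.0 against 311 CPM and at 17.8 against 146 CPM, with 1 UMI in each macrophage-marked group. *P2ry6*, by contrast, was at 230 against 246 CPM in WT (ratio with to without 0.937, 0.586 to 1.43) and at 408 against 208 CPM in 4OH-Tam (1.97, 1.23 to 3.01). *P2rx4* was at 90.0 against 40.7 CPM and at 160 against 37.8 CPM, above in both libraries but with an interval that reached below 1 in WT. *Entpd1* was at 30.0 against 95.2 CPM and at 71.0 against 88.1 CPM, from 3 and 4 UMIs in the marked cells. *P2rx7* went opposite ways, with a ratio with to without of 2.27 (0.932 to 4.83) in WT and 0.416 (0.0104 to 2.41) in 4OH-Tam, from 8 and 1 UMIs in the marked cells. The split holds no replicates and gives values of each library alone.

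**Figure D3:**
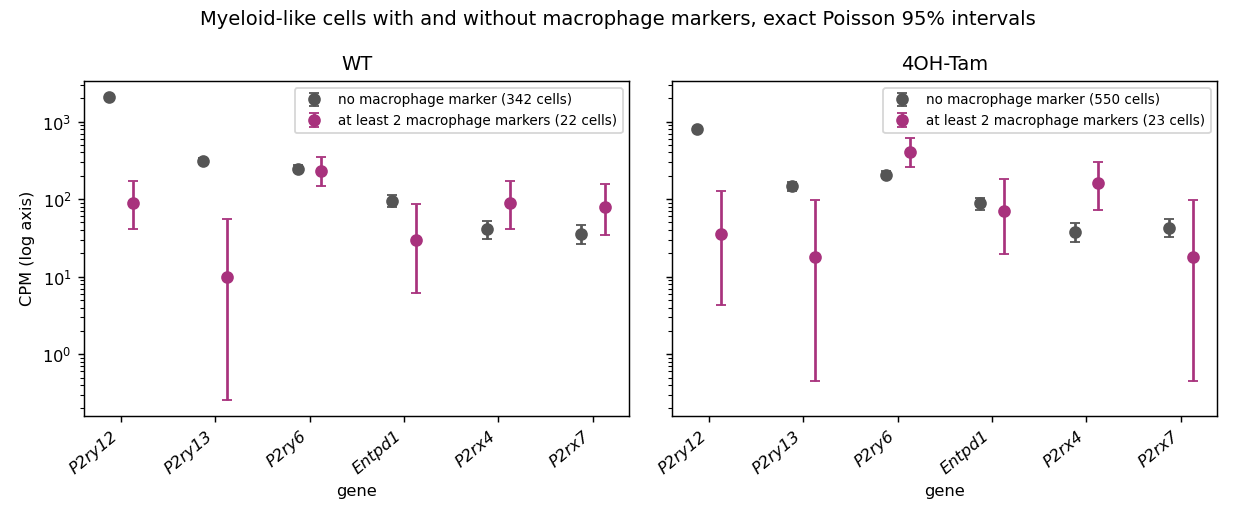
CPM (log axis) of 6 members in myeloid-like cells without macrophage markers and with at least 2, in WT (left) and 4OH-Tam (right), with exact Poisson 95% intervals. *P2ry12* and *P2ry13* are lower in the marked cells of both libraries. *P2ry6* has overlapping intervals in WT and is higher in the marked cells of 4OH-Tam.

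*P2ry1*, the Gq-coupled ADP receptor, was called higher in astrocyte-like cells, well above the level of all other cells. Astrocyte-like cells had 145 UMIs in WT, at 65.2 CPM (55.0 to 76.7), and 180 UMIs in 4OH-Tam, at 50.7 CPM (43.5 to 58.6). All other gated cells were at 4.94 and 4.80 CPM, so the ratio was 13.2 (9.68 to 18.2) and 10.6 (8.18 to 13.7) (edgeR adjusted p = 4.92e-26). It was found in 16.6% and 9.97% of astrocyte-like cells (13.2% and 10.9% thinned, median depths 2672 and 2002 UMIs), against 1.34% and 1.02% of myeloid-like cells (0.826% and 1.19% thinned). The astrocyte-like class had 5 of the 10 members called higher, against 25.6% of all genes. In *Nmb* neuron-like cells *P2ry1* had 0 UMIs in 28 WT cells (a count of 0 leaves room for detection in 10.7% of cells at this depth) and 1 UMI in 59 4OH-Tam cells. The upper ends of the CPM intervals there, 19.2 and 24.6, lie under the astrocyte-like lower ends but above the level of all other cells, 14.6 CPM in WT and 11.98 CPM in 4OH-Tam, and the class was not called lower (edgeR adjusted p = 1). Cholinergic neuron-like cells had 0 UMIs in both libraries (21 and 97 cells), and this class was called lower (edgeR adjusted p = 0.00192), a call lost under 4 of 12 alternatives.

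The other neuron-like classes with *P2ry1* were the glutamatergic neuron-like one, at 43.6 CPM (19.9 to 82.8) and 16.8 CPM (6.75 to 34.6) from 9 and 7 UMIs (edgeR adjusted p = 0.00186), and the inhibitory one, at 11.7 and 10.5 CPM. The glutamatergic call was lost when cells were thinned to 2000 UMIs. Fibroblast-like cells had the highest mean level, 75.3 CPM (20.5 to 193) and 91.0 CPM (36.6 to 187), but from 4 and 7 UMIs, and their intervals hold the astrocyte-like values. Among astrocyte-like cells, *P2ry1* was lower in those with *Gfap*, the filament of fibrous astrocytes, and without the transporter gene *Slc7a10*. It was at 14.3 CPM in 115 such WT cells and 81.7 CPM in 339 cells with *Slc7a10* alone (ratio 0.175, 0.0553 to 0.427), and at 31.2 CPM in 420 and 69.7 CPM in 547 4OH-Tam cells (0.448, 0.280 to 0.698). This split was chosen after its values were seen. *Entpd2* did not follow it, at 169 against 151 CPM in WT and with a ratio of 0.992 (0.743 to 1.32) in 4OH-Tam.

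Of the ATP-gated channels, *P2rx4* was spread over most classes and *P2rx7* was not. *P2rx4*, whose channel lies largely in lysosomes and reaches the surface on activation, was called higher in the cholinergic neuron-like class at 65.0 (28.1 to 128) and 62.7 CPM (44.8 to 85.4) (edgeR adjusted p = 0.000474) and in the oligodendrocyte-like class at 51.1 (44.5 to 58.4) and 56.0 CPM (51.2 to 61.1) (edgeR adjusted p = 5.35e-17). These 2 classes are neighbours in the order of levels, and their intervals overlap. The cholinergic neuron-like level rested on few cells: 8 UMIs in 7 of 21 WT cells, and 40 UMIs in 15 of 97 4OH-Tam cells, of which only 4 had more than 1 UMI and held the larger part. The Poisson interval does not cover this spread between cells, and after thinning *P2rx4* was found in 6 of 20 WT and 5 of 94 4OH-Tam cells of this class. In oligodendrocyte-like cells it was found in 35.8% and 30.3% of cells, and after thinning in 46 of 382 and 133 of 1252. In the oligodendrocyte-like class 2 of 10 members were called higher against 31.2% of all genes and 0 lower against 16.7%, and in the cholinergic neuron-like class 2 against 22.6%. The next class was the myeloid-like one at 42.5 and 42.6 CPM (edgeR adjusted p = 6.24e-09), but against all other cells pooled its ratio was 1.32 and 1.16, with an interval that reached below 1 in 4OH-Tam. The committed OPC-like class, at 35.6 and 34.6 CPM, was also called higher (edgeR adjusted p = 0.00835), which RLE scaling, DESeq2 and the assignment of mixed cells each undid. Compared with all other cells pooled, this class was slightly above in WT and slightly below in 4OH-Tam. *P2rx4* was called lower in OPC-like (18.3 and 15.0 CPM), inhibitory neuron-like (15.6 and 15.4) and pericyte-like cells (7.17 and 5.07). The calls in OPC-like and inhibitory neuron-like cells were lost when thinned, and the pericyte-like call, from 3 UMIs, with at least 1200 genes per cell and with DESeq2. In *Nmb* neuron-like cells it was at 41.6 CPM (17.9 to 81.9) and 13.3 CPM (2.73 to 38.7), from 8 and 3 UMIs, and was not called.

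*P2rx7*, the low-affinity channel that forms large pores on long exposure to ATP, was called higher in 3 classes. In myeloid-like cells it was at 38.1 (29.1 to 48.9) and 42.6 CPM (32.9 to 54.3), 4.98 and 5.89 times the level of all other cells (edgeR adjusted p = 3.81e-21). In OPC-like cells it was at 27.1 (19.1 to 37.4) and 24.9 CPM (18.2 to 33.3), 2.89 and 3.01 times the rest (edgeR adjusted p = 1.21e-09). The lower myeloid value, 38.1 CPM, lies above the higher OPC-like one, and their intervals overlap. OPC-like cells had 4 of 10 members called higher, against 23.6% of all genes, and 1, *P2rx4*, lower, against 9.65%. In committed OPC-like cells *P2rx7* was at 3.44 and 4.37 CPM and in oligodendrocyte-like cells at 5.94 and 5.24 CPM, so both later classes of the lineage lay under the OPC-like intervals. Astrocyte-like cells were called higher at 9.89 and 10.7 CPM (edgeR adjusted p = 0.000727), a level within counting error of all other cells pooled (ratios 0.875 and 1.14). The *P2rx7* UMIs outside the myeloid-like class, 96 and 155, were far above the 2.34 and 6.84 that go with the microglial list at the myeloid ratio. The glutamatergic neuron-like class had 0 UMIs in both libraries and was called lower (edgeR adjusted p = 0.0193), which thinning, a limit of 10% mitochondrial UMIs and DESeq2 each undid.

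Of the ectonucleotidases, *Entpd1* and *Entpd2* stood in different classes. *Entpd1*, which encodes CD39 and takes ATP and ADP to AMP, was at 91.2 (77.0 to 107) and 89.2 CPM (74.8 to 106) in myeloid-like cells, 14.1 and 19.3 times the rest (edgeR adjusted p = 1.25e-31). The second class was the endothelial-like one at 31.5 (22.9 to 42.2) and 28.6 CPM (19.6 to 40.4) (edgeR adjusted p = 3.47e-14), where it was the only member called higher of 10, against 29.3% of all genes. *Entpd1* was found in 31.8% and 21.0% of myeloid-like cells (17.6% in both thinned) and in 32 of 246 and 28 of 297 endothelial-like cells (5.83% and 3.59% thinned). In oligodendrocyte-like cells the shares were 0.258% and 0.788%. It was also called higher in OPC-like and astrocyte-like cells, at 13.2 and 7.20 CPM and at 7.64 and 9.29 CPM. The astrocyte-like call was lost with at least 1200 genes per cell and with at most 10% mitochondrial UMIs. There the comparison is with the mean log level of classes of which 3 had 0 UMIs, and against all other cells pooled the ratios were below 1, at 0.808 and 0.685 for OPC-like and 0.435 and 0.892 for astrocyte-like cells. Pericyte-like, fibroblast-like and *Nmb* neuron-like cells had 0 UMIs in both libraries. The 81 and 99 *Entpd1* UMIs outside the myeloid-like class exceeded the 5.59 and 14.3 that go with the microglial list.

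*Entpd2*, which encodes an ATPase that releases mostly ADP, was at 153 (137 to 171) and 93.5 CPM (83.7 to 104) in astrocyte-like cells, 26.9 (20.7 to 35.5) and 17.9 (14.3 to 22.6) times the rest (edgeR adjusted p = 5.06e-34). It was found in 33.6% and 17.4% of these cells (26.9% and 12.8% thinned), against 2.14% and 1.87% of myeloid-like cells (0.826% and 1.43% thinned). Fibroblast-like cells were higher still, at 377 (230 to 582) and 169 CPM (90.0 to 289), in 7 of 11 and 9 of 27 cells (edgeR adjusted p = 3.52e-16). Their interval lay above the astrocyte-like one in WT and overlapped it in 4OH-Tam. In this class 2 members, *Entpd2* and *P2ry1*, were called higher against 5.75% of all genes and 0 lower against 2.98%, from 11 and 27 cells. Pericyte-like cells came next at 21.5 and 20.3 CPM, a call (edgeR adjusted p = 0.0467) lost under 7 of 12 alternatives. It was the only member called higher there, against 14.6% of all genes, while 2, *Adora1* and *P2rx4*, were lower, against 4.59%. The neuron-like classes were at 9.10 CPM or less. The glutamatergic one had 0 UMIs and was called lower (edgeR adjusted p = 0.00489), a call lost when thinned and with at least 1200 genes per cell. In that class 2 members, *Entpd2* and *P2rx7*, were lower against 12.2% of all genes, and 1, *P2ry1*, was higher against 20.3%.

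*Nt5e*, which encodes CD73 and makes adenosine from AMP, was the scarcest member, with 140 UMIs in the gated cells. It was highest by mean level in OPC-like cells at 10.3 (5.61 to 17.2) and 10.5 CPM (6.33 to 16.4) (edgeR adjusted p = 1.91e-05), with calls also in committed OPC-like cells at 3.44 and 7.73 CPM (edgeR adjusted p = 0.00184) and oligodendrocyte-like cells at 4.52 and 4.57 CPM (edgeR adjusted p = 0.000200). In the committed OPC-like class 2 members, *Nt5e* and *P2rx4*, were called higher against 26.4% of all genes. The share of cells with *Nt5e* did not pass 4.90% in OPC-like, committed OPC-like and oligodendrocyte-like cells. By mean level, 2 classes that were not called lay between the OPC-like and committed OPC-like ones. They were fibroblast-like cells at 18.8 and 0 CPM, from 1 UMI, and cholinergic neuron-like cells at 8.13 and 4.70 CPM, from 4 UMIs. Myeloid-like cells had 0 UMIs in WT and 1 in 4OH-Tam, and astrocyte-like cells 2 and 4, at 0.899 and 1.13 CPM. *Nt5e* and *Entpd1* therefore peaked in different classes.

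*Adora1*, the Gi-coupled adenosine receptor that lowers transmitter release, was the member called in the most classes, higher in 5 and lower in 3. It was higher in astrocyte-like cells at 122 (108 to 138) and 145 CPM (133 to 158) (edgeR adjusted p = 6.53e-23), in cholinergic neuron-like cells at 130 (74.3 to 211) and 169 CPM (139 to 204) (edgeR adjusted p = 2.14e-10) and in *Nmb* neuron-like cells at 135 (88.2 to 198) and 119 CPM (78.6 to 174) (edgeR adjusted p = 4.67e-06). These 3 classes overlap in their libraries and their order is not resolved. OPC-like cells followed at 81.4 and 78.6 CPM (edgeR adjusted p = 1.60e-05), then glutamatergic neuron-like cells at 58.1 and 84.0 CPM, which were not called, and inhibitory neuron-like cells at 49.4 and 74.2 CPM (edgeR adjusted p = 0.0307), a call that thinning, a minimum of 1200 genes and the fit with no library term undid. *Adora1* was the only member of the 10 called higher in the *Nmb* neuron-like class (15.2% of all genes) and in the inhibitory neuron-like class (28.9%).

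*Adora1* was found in 53.6% (15 of 28) and 32.2% (19 of 59) of *Nmb* neuron-like cells, at median depths of 6547 and 3744 UMIs, and in 21.4% and 22.6% once thinned. In myeloid-like cells it was found in 5.61% and 6.98% (3.03% and 5.48% thinned). Committed OPC-like cells, with 21 and 58 UMIs and 19.5 CPM in 4OH-Tam (edgeR adjusted p = 2.55e-06), endothelial-like cells, at 7.87 and 14.3 CPM (edgeR adjusted p = 4.30e-07), and pericyte-like cells, at 14.3 and 20.3 CPM from 8 UMIs (edgeR adjusted p = 0.0273), were called lower. The pericyte-like call was lost under 4 of 12 alternatives. The intervals of committed OPC-like cells lay under those of OPC-like cells in both libraries, as for *P2rx7*.

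**Figure D4:**
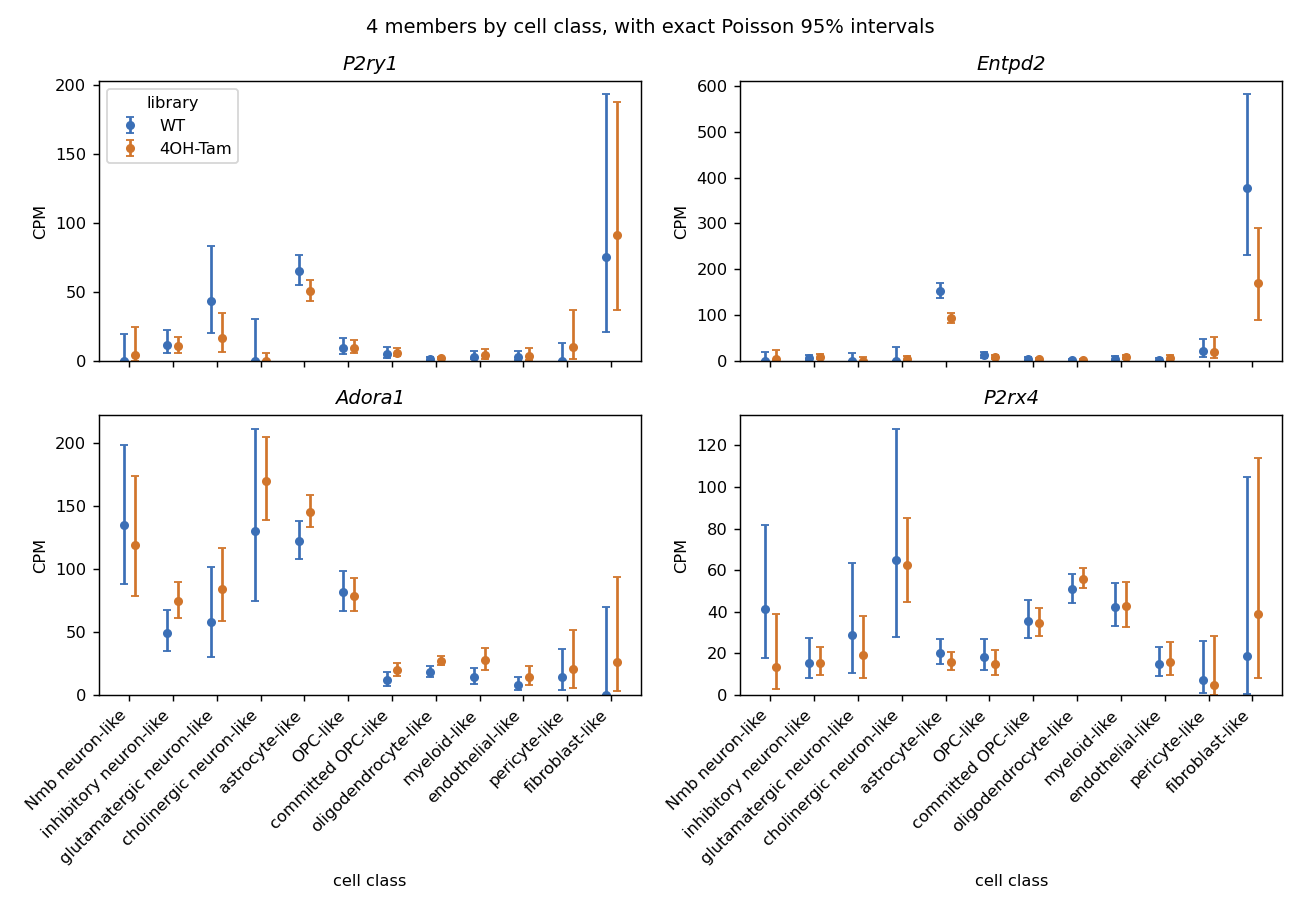
CPM of *P2ry1*, *Entpd2*, *Adora1* and *P2rx4* in the 12 classes, WT and 4OH-Tam side by side, with exact Poisson 95% intervals on axes that start at 0. *P2ry1* and *Entpd2* share the astrocyte-like and fibroblast-like classes, *Adora1* is high in neuron-like, astrocyte-like and OPC-like cells, and *P2rx4* is high in oligodendrocyte-like cells and, from 15 of 97 cells in 4OH-Tam, in cholinergic neuron-like cells.

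Between the libraries, *P2ry12* and *P2ry13* in myeloid-like cells differed most among the 16 pairs of a member and a class with at least 100 UMIs. In myeloid-like cells *P2ry12* was 2.50 times (2.34 to 2.68) and *P2ry13* 2.09 times (1.77 to 2.46) as high in WT as in 4OH-Tam, while *P2ry6* was at 1.13 (0.969 to 1.31), *Entpd1* at 1.02 (0.804 to 1.30), *P2rx4* at 0.996 (0.698 to 1.42) and *P2rx7* at 0.893 (0.619 to 1.29). Of the 8 members with at least 20 UMIs in this class, 2 were at least 1.5 times higher in WT, against 8.91% of all such genes, and 2, *Entpd2* and *Adora1*, at least 1.5 times higher in 4OH-Tam, against 15.9%. Both of the latter were low, at 5.00 and 7.87 CPM and at 14.4 and 27.6 CPM. The 6 microglial genes listed above moved in the same direction as *P2ry12*, all 6 higher in WT, from 1.33 times for *Fcrls* to 1.64 times for *Selplg*. *C1qa*, the anchor of the class, was at 1.25 and *Cx3cr1* at 1.04 times. *Fos*, *Jun*, *Junb*, *Egr1* and *Dusp1*, early genes that handling of tissue can induce and that were chosen after their values were seen, were 1.62 to 2.17 times as high in WT. The part of these differences in the *P2ry12* ratio was not tested. Among cells without a macrophage marker the gap was as wide, 2048 against 798 CPM.

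In astrocyte-like cells *Entpd2* was 1.64 times (1.41 to 1.91) and *P2ry1* 1.29 times (1.03 to 1.61) as high in WT, and *Adora1* 0.842 times (0.724 to 0.977). *Entpd2* was the 1 member of 7 that passed 1.5 times there, against 8.83% of all genes, and 0 passed it in the other direction, against 11.0%. With at most 10% mitochondrial UMIs its ratio was 1.499, just under that limit. *Adora1* was lower in WT in oligodendrocyte-like (0.688, 0.526 to 0.891) and inhibitory neuron-like cells (0.665, 0.447 to 0.972) as well. Intervals that left out 1 were common among all genes with at least 20 UMIs. Their share was 24.7% in astrocyte-like, 24.8% in oligodendrocyte-like, 21.6% in myeloid-like and 14.9% in inhibitory neuron-like cells. The plot of ratios shows the 16 pairs.

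**Figure D5:**
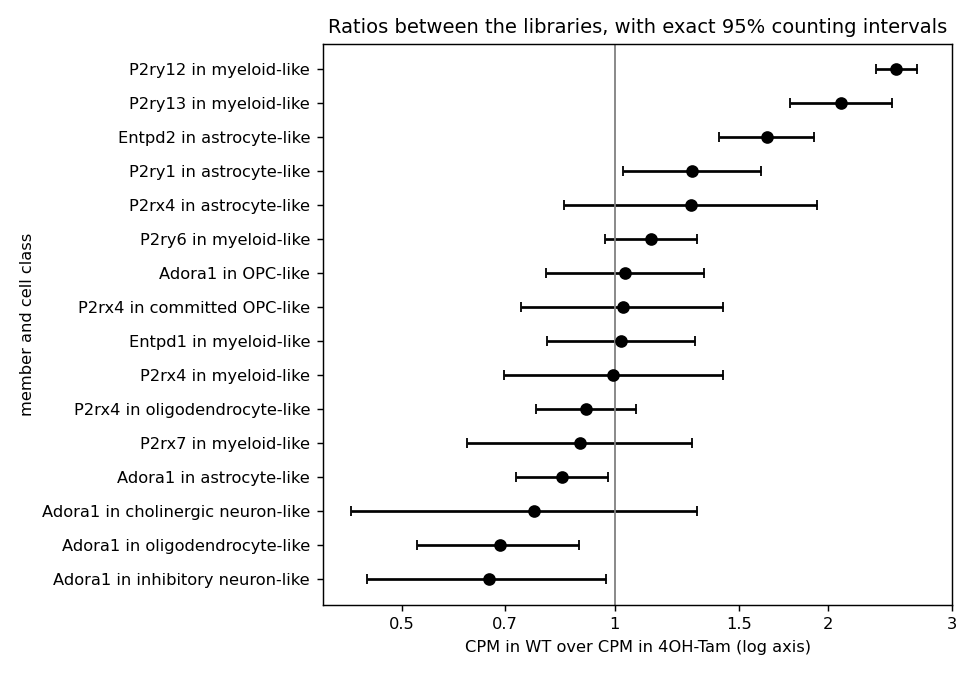
Ratio of CPM in WT to CPM in 4OH-Tam (log axis) for the 16 pairs of a member and a class with at least 100 UMIs, with exact conditional 95% intervals. *P2ry12* and *P2ry13* in myeloid-like and *Entpd2* and *P2ry1* in astrocyte-like cells lie right of 1 with their whole intervals, and *Adora1* lies left of 1 with its whole interval in 3 classes. Over all genes with at least 20 UMIs, 14.9% to 24.8% of intervals left out 1 in these classes.

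The wider pathway was read from 30 further genes in 4 lists, of which 21 passed the filter on low counts. Each of these 21 was called higher in at least 1 class. Over the pairs of a gene and a class, 21.8% were higher and 11.5% lower, near the background of 22.7% and 11.7%, with a median log2 difference of 0.02. By list, 15.6% of pairs were higher and 3.12% lower for receptors, 25% and 5% for hydrolysis, 36.1% and 19.4% for adenosine handling, and 20% and 26.7% for release. When cells were thinned to 2000 UMIs the lower calls of all 4 lists went from 29 to 10, so the lower shares depend on this setting. A gene that passed the filter through 1 class had to be high there, so nothing is read from the count of 21.

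Of 11 receptor genes, 8 passed, and they divided among the classes. *Adora2b*, a low-affinity adenosine receptor, was called higher in astrocyte-like (75.5 and 56.6 CPM) and OPC-like cells (18.3 and 12.7). *Adora2a* was higher in pericyte-like (154 and 60.8 CPM), endothelial-like (47.2 and 29.5) and fibroblast-like cells, the last from 7 UMIs in 1 library. *Adora3* was higher in myeloid-like cells alone (64.3 and 43.9 CPM), all of its UMIs there in cells with fewer than 2 macrophage markers. The marked groups had only 22 WT and 23 4OH-Tam cells. Against cells with no marker, the upper bound of the ratio was 0.545 in WT but 1.48 in 4OH-Tam, which does not separate the groups. *P2ry14*, a UDP-sugar receptor that also lies inside *Med12l*, was higher in pericyte-like cells (179 and 112 CPM) and lower in myeloid-like (0 and 0.656), oligodendrocyte-like (2.61 and 1.11) and committed OPC-like cells (5.16 and 1.68). *P2rx1* was higher in pericyte-like (17.9 and 25.4 CPM) and myeloid-like cells (21.2 and 9.18). The channel genes *P2rx5* (89.4 and 26.6 CPM), *P2rx6* (97.6 and 47.0) and *P2rx2* (8.13 and 6.27) were higher in cholinergic neuron-like cells, *P2rx2* from 5 UMIs. *P2rx2* and *P2rx5* were also called in the glutamatergic neuron-like class from 4 and 6 UMIs, and *P2rx6* in astrocyte-like cells at 8.99 and 4.50 CPM. *P2rx3*, *P2ry2* and *P2ry4* had 3, 40 and 1 UMIs and did not pass.

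Of 8 genes of nucleotide hydrolysis, 5 passed. *Entpd3*, a neuronal ectonucleotidase, was called higher in cholinergic (97.6 and 36.0 CPM) and glutamatergic neuron-like cells (4.84 and 16.8). *Entpd6* was higher in all 4 neuron-like classes, at 45.5 to 114 CPM, and in astrocyte-like cells, and lower in oligodendrocyte-like and endothelial-like cells. *Entpd5* was higher in oligodendrocyte-like (64.9 and 56.0 CPM) and astrocyte-like cells and lower in myeloid-like cells. Both encode enzymes that act mainly inside the cell or are secreted. *Alpl*, an alkaline phosphatase that can also make adenosine from AMP, was higher in astrocyte-like (50.4 and 43.9 CPM) and OPC-like cells (7.33 and 4.98). *Enpp1* was higher in fibroblast-like (339 and 143 CPM), pericyte-like, oligodendrocyte-like and myeloid-like cells. *Entpd4* had 0 UMIs in all gated cells, and *Entpd8* and *Enpp3* had 4 and 33.

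Of 5 genes of adenosine handling, 3 passed. *Adk*, the kinase that removes adenosine, was higher in astrocyte-like (107 and 94.0 CPM) and pericyte-like cells (71.7 and 76.1) and lower in *Nmb* neuron-like, inhibitory neuron-like and endothelial-like cells. The equilibrative transporter *Slc29a1* was higher in 6 classes, among them endothelial-like (90.8 and 50.1 CPM), myeloid-like (83.7 and 59.7) and *Nmb* neuron-like cells (26.0 and 70.7), and lower in the glutamatergic and cholinergic neuron-like, committed OPC-like and oligodendrocyte-like classes, while *Slc29a2* was higher in the 4 neuron-like classes and in astrocyte-like cells. *Ada* and *Slc28a2* had 47 and 1 UMIs.

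Of 6 genes tied to ATP release, 5 passed. The connexin gene *Gjb6* (connexin 30) was higher in astrocyte-like (383 and 287 CPM) and fibroblast-like cells (414 and 312), and lower in committed OPC-like, oligodendrocyte-like and all neuron-like classes but the *Nmb* one. *Gjb2* (connexin 26), the CO2-sensitive hemichannel of this region, was at 13.9 and 13.2 CPM in astrocyte-like cells and at 320 and 78.0 CPM in fibroblast-like cells, from 23 UMIs. *Lrrc8a*, the core subunit of the volume-regulated anion channel, was higher in astrocyte-like (242 and 222 CPM) and endothelial-like cells (116 and 128) and lower in OPC-like (57.2 and 70.9), committed OPC-like (33.8 and 43.0) and oligodendrocyte-like cells (13.3 and 14.7). *Panx1* was higher in committed OPC-like (123 and 136 CPM) and OPC-like cells (44.7 and 39.9) and lower in astrocyte-like (5.40 and 9.85), oligodendrocyte-like (5.94 and 6.68), endothelial-like (6.44 and 7.15) and myeloid-like cells (10.6 and 5.25), and *Panx2* was higher in the 4 neuron-like classes and lower in OPC-like, committed OPC-like, oligodendrocyte-like and endothelial-like cells. *Slc17a9*, the vesicular nucleotide transporter, had 23 UMIs, 10 of them in the myeloid-like cells of each library.

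The genes nearest to each member in pattern were taken by Pearson's r of log2(CPM + 1) over 24 sums of a class and a library, among 12465 genes with at least 100 UMIs. The 2 sums of a class share their gate and all sums of a library share its depth, so r is a description and has no test. *P2ry13* was nearest to *Gpr183* (r = 0.980), *Csf3r* (0.977) and *Ms4a6d* (0.976), *P2ry6* to *Tagap* (0.951), *Lat2* (0.927) and *Arl11* (0.923), and *P2ry12* to *Ntpcr* (0.920), *Ms4a6d* (0.918) and *Ccl12* (0.914), most of them genes known from leukocytes. *Entpd1* was nearest to *Hhex* (0.899), *Vsir* (0.891) and *Nfatc1* (0.888). *Entpd2* was nearest to *Mdk* (0.938), *Ccdc80* (0.910) and the connexin gene *Gjb6* (0.907), and *P2ry1* to *Gli2* (0.849), *Ppp1r1a* (0.803) and *Boc* (0.796). *Adora1* was nearest to *Adgrb1* (0.944), *Magi1* (0.943) and *Arhgef4* (0.936). The nearest genes of the other 3 members were *Zeb2os* (0.837), *Agmo* (0.791) and *Zfp652* (0.788) for *P2rx7*, *Cops7b* (0.799), *Gm22* (0.768) and *Xndc1* (0.744) for *Nt5e*, and *Bin1* (0.750), *Tmem55b* (0.735) and *Primpol* (0.724) for *P2rx4*. Between members, r was highest for *P2ry12* with *P2ry13* (0.906), *P2ry6* with *P2ry13* (0.888) and *P2ry6* with *P2ry12* (0.870), and was 0.634 for *P2ry1* with *Entpd2*.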

How the data were processed

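Single-cell RNA was counted in 2 libraries of the ventral parafacial region, 1 WT and 1 4OH-Tam, with 12000 cells loaded for each. The authors converted reads with bcl2fastq (2.18.0.12) and counted UMIs with Cell Ranger (2.2.0) on mm10 (GRCm38), per the labels. The deposited values are counts of UMIs per gene and barcode, without normalization. Gene positions come from GENCODE vM21 and promoters from RefSeq.

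Cells needed at least 800 genes, at most 50 hemoglobin UMIs and at most 20% mitochondrial UMIs, and doublets called by Scrublet (scanpy 1.11.5, automatic threshold) were removed, 43 WT and 532 4OH-Tam barcodes. A cell entered the class whose marker panel had the largest scaled share of its UMIs, if at least 3 panel genes and the anchor were seen and the share was at least 2 times that of the next panel. Neurons were then split by *Nmb* (at least 2 UMIs), *Slc32a1*, *Slc17a6* and *Chat*, and 573 and 2304 cells stayed outside the classes. The scoring rule was set after the data were seen. The members and lists were chosen with earlier results of these data known.

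Class sums were tested with edgeR 4.0.16 (TMM, filterByExpr, library as a term, in R 4.3.3), each class against the mean of the others, with DESeq2 1.42.0 as an alternative. The fit was tested on simulated data. CPM has exact Poisson, shares exact binomial and ratios exact conditional 95% intervals, and a share of 0 allows up to 3 cells. Genes named are the members, list genes called higher or at 0, the 3 nearest genes per member, and markers; list genes that did not pass the filter and the early genes were added after their values were seen. Alternatives changed scaling, filters, gates, doublets, thinning (2000 UMIs per cell) and the test.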

Additional observations from a re-analysis of the deposited data

Results flagged for a closer look

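Cells that passed the filters but entered no class (573 WT and 2304 4OH-Tam) took part in no comparison, and all 10 members had more UMIs in them than the 3 that a count of 0 allows. *Adora1* was at 29.4 CPM in WT and 66.5 CPM in 4OH-Tam, *P2rx4* at 28.6 and 25.5, *P2ry12* at 23.9 and 15.3 and *Entpd2* at 16.5 and 10.9. *P2ry1* was at 10.6 and 9.02 CPM, *P2rx7* at 10.2 and 9.89, *Entpd1* at 7.84 and 8.88, *Nt5e* at 8.23 and 4.95, *P2ry6* at 5.09 and 3.93 and *P2ry13* at 2.35 and 4.07. Of these cells, 337 and 1211 had markers of 2 classes, 182 and 849 had too few markers, and 54 and 244 were neurons outside the 4 neuron gates.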

How the results depend on the processing

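Of the 37 calls of a member in a class, 25 held under every one of the 12 alternative fits that could test them, 23 higher and 2 lower. The calls of a member in its leading class by p all held. The number of calls lower went from 9 to 3 when cells were thinned to 2000 UMIs (fewer cells and UMIs) and to 15 with DESeq2, where the cause was not tested. Thinning also took the calls of the pathway list from 84 to 53 and its lower calls from 29 to 10. The share of myeloid-like cells with *P2ry12*, 88.1% as the mean of the libraries, was 72.4% with at least 2 UMIs required. The *P2ry12* ratio of WT to 4OH-Tam was 3.21 with at least 1200 genes per cell and 2.74 thinned, and otherwise 2.39 to 2.53. That of *P2ry13* was 2.78 with at least 1200 genes, and that of *Entpd2* in astrocyte-like cells 1.96 and 2.28 under the same 2 changes and 1.499 with at most 10% mitochondrial UMIs. The highest class of a member was the same in 7 to 10 of 10 members, with *Adora1* and *Nt5e* the least fixed; *P2ry1* led in astrocyte-like cells under those 2 changes. Leaving out a library gives values with no test: 37 of 37 member calls and 82 to 84 list calls kept their direction, 8 to 10 leading classes stayed, the *P2ry12* share was 81.3 to 94.9%, and its ratio without to with macrophage markers 22.5 to 22.8. No library term, that is no replicate block, gave 34 member and 77 list calls. No paired analysis was possible because each condition has 1 library. Depth limits the small classes most, where 1 UMI is worth up to 18.8 CPM.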
